A study of Gallus gallus with 2 samples.

Results

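The transcripts described here are those named as small non-coding RNAs in RNA-seq of whole chicken embryo hearts. A name was taken when it began with gga-mir, gga-let, SNORA, SNORD, SCARNA, ACA and a digit, snoU, U6atac, 7SK or RNase, or was U3. The rule found 55 of 13011 names, which cover 74 of 27335 assembled transcripts and 58 of 14677 assembled loci. By name prefix, 25 are microRNA precursors, 13 are H/ACA RNAs, 8 are C/D RNAs and 9 are other small nuclear and nucleolar RNAs.

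The study set hearts of embryos exposed to AAPH against hearts of embryos given saline. AAPH is 2,2-azobis(2-amidinopropane) dihydrochloride, a compound that breaks down into free radicals. Eggs were kept at 38 °C and 70% humidity, and 2.6 µmol of AAPH in 100 µL went into the air chamber at Hamburger-Hamilton stage 35 and on alternate days up to day 10. Hearts of embryos that survived were collected at stage 37, on day 11, and the control is labelled as saline, with no volume or schedule of its own. Each group is 1 library made from heart RNA extracted as total RNA, called saline (or control) and AAPH here. No value thus has a replicate error, and no difference was tested. The labels do not give the number of hearts per library, the sex of the embryos or a size selection for small RNAs.

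A microRNA is cut from a hairpin inside a longer transcript, first by DROSHA in the nucleus and then by DICER1 in the cytoplasm, and the mature strand then guides an Argonaute protein to messenger RNAs. H/ACA RNAs guide the conversion of uridine to pseudouridine and C/D RNAs guide the methylation of ribose, mostly in ribosomal RNA. The RNAs named SCARNA do the same for the small nuclear RNAs of the spliceosome in Cajal bodies. In vertebrates most of these guides lie in introns of host genes. A library made from total RNA can hold a hairpin's primary transcript and its host's introns, and how far these libraries held them was not checked. A microRNA name here thus stands for the precursor's place and not for the mature microRNA.

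Values are FPKM, fragments corrected for the length of the transcript and the size of the library, added up over the transcripts of a name. A log2 ratio is log2((AAPH FPKM + 1)/(control FPKM + 1)), a scale that understates changes of low values. Names at a mean FPKM of 1 or more were compared, and 2-fold was the size used to count a name as higher or lower. Of the 55 names, 53 passed that filter. SCARNA6 and snoU85 did not, and both were listed at 0 in the control library.

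A larger share of small RNA names than of other names lay far apart in the 2 libraries. In the AAPH library 4 of 53 were 2-fold or more higher (7.55%), where 0.356% of all names were, and 11 were 2-fold or more lower (20.8%), where 0.782% of all names were. Most of these differences were between a value and a listed 0: 3 of the 4 higher names and 7 of the 11 lower names. A name at 0 in 1 library passes the filter only through its other value, and is then always counted past 2-fold. These calls thus restate the zeros and add nothing to them. Of the 55 names 12 (21.8%) were at 0 in 1 library, and 6.74% of all names were. Of the 43 names with a value in both libraries, 1 was 2-fold higher and 4 were 2-fold lower on the log2 ratio. Among all 10087 names compared with a value in both, 0.297% were higher and 0.654% lower. In plain ratios, without the added 1 FPKM, SNORD87, gga-mir-32, gga-mir-1650 and RNaseP_nuc also passed 2-fold. How many of all names pass 2-fold in plain ratios was not counted, so these 4 have no background beside them. For gga-mir-1650 and RNaseP_nuc the smallest matching fragment numbers were 2 under AAPH and 1 under saline, as described below. The median log2 ratio of those 43 was −0.24, against 0.0047 over the 10053 other names compared.

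**Figure D1:**
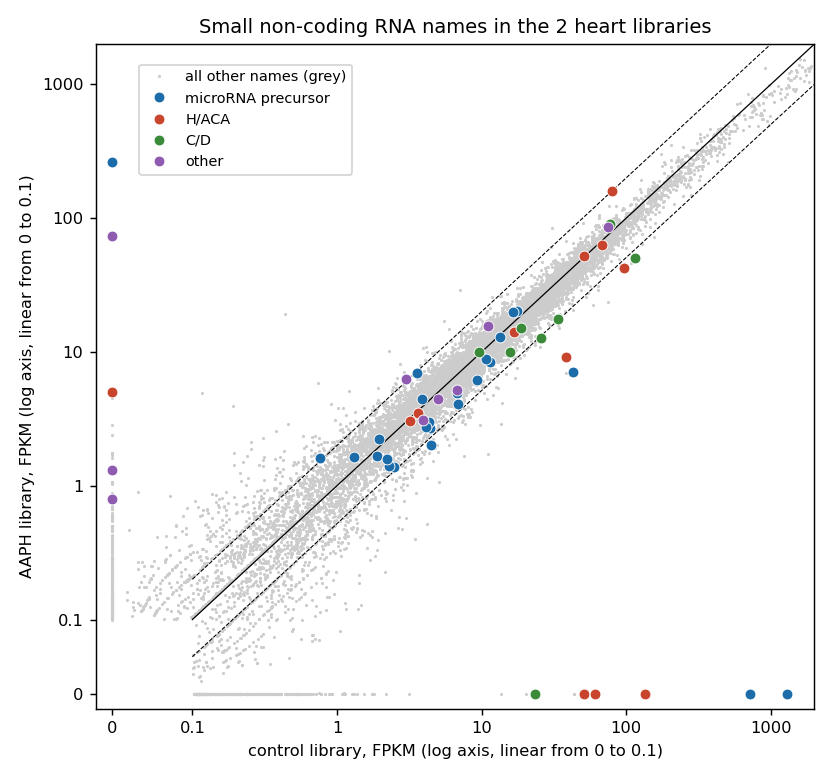
FPKM of each name in the control library (x axis) and the AAPH library (y axis), on log axes that are linear from 0 to 0.1; coloured points are the 55 small RNA names by class and grey points the other names, without the 582 under 0.1 in both libraries and the 86 above 2000 in either. The solid line marks equal values and the dashed lines a plain 2-fold ratio; 5 small RNA names sit on the left edge at 0 in the control library and 7 on the lower edge at 0 in the AAPH library.

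The microRNA names reached the highest FPKM among the small RNAs, through 3 entries that were listed at 0 in the other library. gga-mir-6572 was at 1287 FPKM under saline and at 0 under AAPH. gga-mir-6542 was at 720 FPKM under saline and at 0 under AAPH. In the opposite direction, gga-mir-6585 was at 0 under saline and at 262 FPKM under AAPH. These 3 are chicken microRNAs with no role known well enough to state. The class's summed FPKM was 2179 under saline and 388 under AAPH with these 3 names, and 173 and 125.8 without them.

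A RefSeq gene spans each of the 3 places, and none of those genes passed 2-fold on the log2 ratio used here. SRF, the transcription factor that drives many muscle genes, spans gga-mir-6542 and shares its assembled locus; it was at 78.7 FPKM under saline and 74.4 under AAPH. RABGEF1, an activator of the small GTPase RAB5, spans gga-mir-6585 and shares its locus, and was at 9.05 and 9.47 FPKM. TMEM248, which also spans gga-mir-6585, was at 20.1 and 21.1 FPKM. AGO2, the Argonaute protein that can cut its target, spans gga-mir-6572; at 0.418 and 0.898 FPKM it lay under the filter.

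Of the microRNA names with a value in both libraries, only gga-mir-6652 passed 2-fold. It was at 43.1 FPKM under saline and 7.11 under AAPH, a log2 ratio of −2.44. Most of the difference lay in 1 of its 2 assembled transcripts, listed at 32.7 FPKM under saline and at 0 under AAPH, while the other was at 10.4 and 7.11. NEURL1B, a ubiquitin ligase of the Notch pathway that spans this microRNA, was at 9.02 and 11.7 FPKM.

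The 12 microRNA names whose families are also known in mammals were all lower in the AAPH library, by modest amounts. Their log2 ratios ran from −0.84 to −0.24 with a median of −0.46, and their summed FPKM was 69.0 under saline and 47.3 under AAPH. Of all names compared, 5006 of 10106 had a ratio below 0. At 1.5-fold on the log2 ratio, 2 of the 12 were lower, gga-mir-32 and gga-mir-181a-1, and none was higher. Of all names 3.93% were lower and 2.73% higher at that size. This grouping was made after the values were seen, so it describes these libraries and supports nothing further. After rescaling to TPM, which brings both libraries to the same total and moved the median of all names up by 0.23, all 12 were still below 0, from −0.63 to −0.0020, with a median of −0.26.

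The let-7 family, which restrains growth programmes and is itself blocked by LIN28 proteins, had 3 entries. gga-let-7d was at 11.4 FPKM under saline and 8.45 under AAPH (log2 ratio −0.39). gga-let-7i was at 4.37 and 2.68 FPKM (−0.55). gga-let-7j was at 2.47 and 1.39 FPKM (−0.54). All 3 were thus lower in the AAPH library. MON2, a trafficking gene that spans gga-let-7i, was at 4.41 and 5.47 FPKM, and MTCH1, a protein of the outer mitochondrial membrane that spans gga-let-7j, at 9.35 and 8.59.

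Among microRNAs enriched in muscle, 1 of the 9 sought was found, gga-mir-133a-2, whose family limits proliferation of heart muscle cells in mouse. It was at 2.30 FPKM under saline and 1.41 under AAPH (log2 ratio −0.45). It shares an assembled locus with gga-mir-1773, which was at 3.56 and 6.94 FPKM (0.80), so the 2 names differed in opposite directions. The 3 transcripts of gga-mir-1773 in that locus were at 0 and 2.42 FPKM, 1.79 and 2.59, and 1.77 and 1.92. How reads were divided among transcripts of this locus was not tested. In RefSeq both lie within LOC101747836, and MIR1-1, a muscle microRNA, lies within 5000 bases of gga-mir-1773.

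Of 20 other microRNAs studied in heart, 3 were found. gga-mir-21, which is induced in stressed mammalian heart and in its fibroblasts, was at 2.21 FPKM under saline and 1.58 under AAPH (log2 ratio −0.31). RPS6KB1, a kinase of ribosomal protein S6 that spans it, was at 7.58 and 8.70 FPKM. gga-mir-30c-2, of a family that restrains connective tissue growth factor in rat heart cells, was at 10.7 and 8.90 FPKM (−0.24). gga-mir-138-1, needed for chamber patterning of the zebrafish heart, was at 4.35 and 3.001 FPKM (−0.42). These 3 names were thus all lower in the AAPH library and within 1.5-fold. None of the 7 blood microRNAs, the 1 endothelial microRNA or the 7 of the mir-17 cluster and its paralogues was matched, and they are not analysed here.

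The other 5 names of families known in mammals had the same direction. gga-mir-32 was at 4.43 FPKM under saline and 2.03 under AAPH (log2 ratio −0.84), the lowest ratio of the 12. TMEM245, which spans it, was at 7.64 and 7.95 FPKM. gga-mir-181a-1, whose family tunes signalling in mouse T cells, was at 6.82 and 4.05 FPKM (−0.63). Its 2 transcripts went opposite ways, from 2.43 to 4.05 FPKM and from 4.39 to 0.000306. gga-mir-125b-2, a relative of worm lin-4, was at 9.22 and 6.22 FPKM (−0.50). gga-mir-148a was at 6.71 and 4.90 FPKM (−0.38), and gga-mir-365-2 at 4.13 and 2.73 (−0.46).

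The remaining 9 microRNA names with a value in both libraries carry numbers given to chicken entries, and they were mixed. With gga-mir-6652 they make 10, of which 3 were below 0 and 7 above, with a median log2 ratio of 0.18. Under TPM 1 was below 0 and 9 above, with a median of 0.35. Against the median of all names, 0.23 under TPM, 3 of the 10 were below with either scaling. gga-mir-1456 was at 17.6 FPKM under saline and 20.1 under AAPH (0.18), and gga-mir-1551 at 16.4 and 19.8 (0.25). gga-mir-1653 was at 13.4 and 13.0 FPKM (−0.04). gga-mir-1650 was at 0.761 and 1.60 FPKM (0.56), the second highest of the 10 after gga-mir-1773. The others were gga-mir-6669 (3.87 and 4.49 FPKM), gga-mir-1627 (1.96 and 2.22), gga-mir-1592 (1.32 and 1.64) and gga-mir-1591 (1.90 and 1.66).

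**Figure D2:**
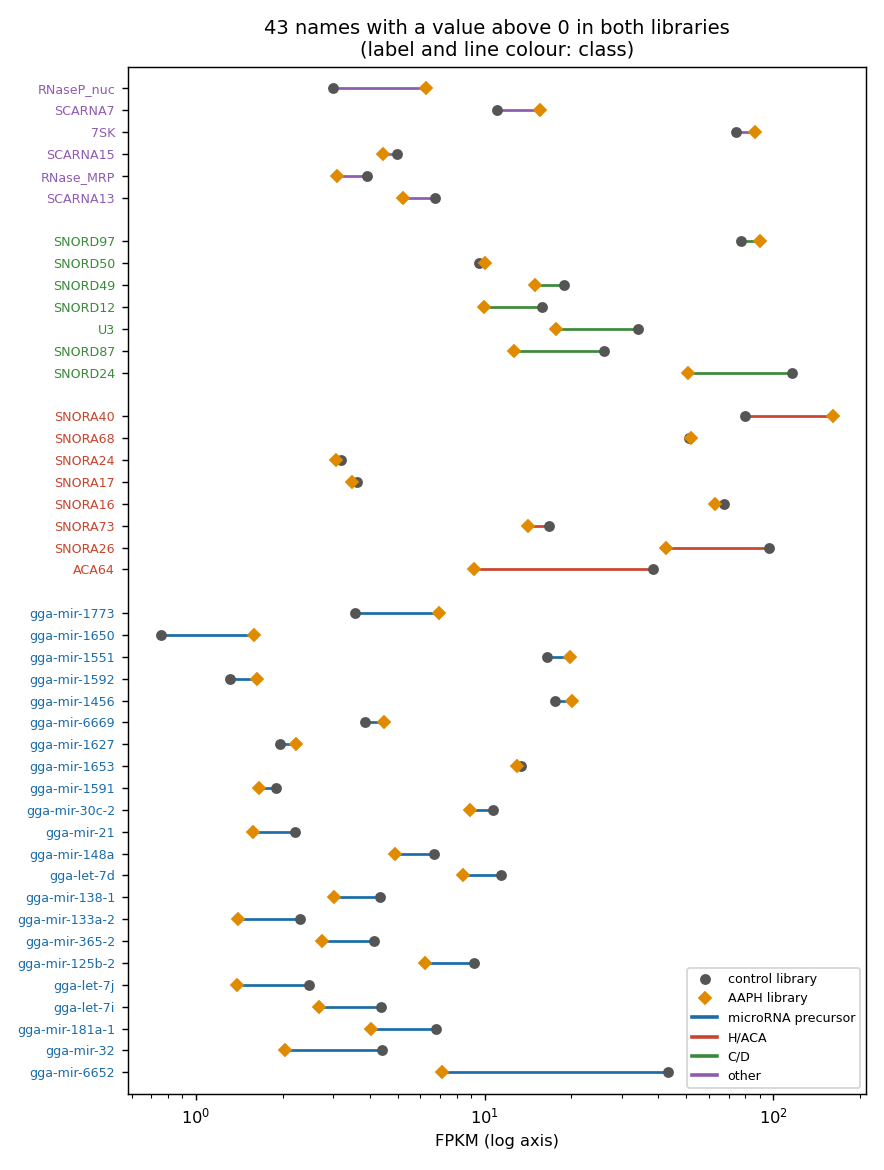
FPKM of the 43 small RNA names with a value above 0 in both libraries, on a log axis; each line joins a name's control value (grey circle) and AAPH value (orange diamond), and line and label colours give the class. In the microRNA block, the 12 names of families known in mammals have the diamond to the left of the circle, as does gga-mir-6652 at the bottom (43.1 and 7.11 FPKM).

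Over all 25 microRNA names the log2 ratios had a median of −0.38 and quartiles of −0.54 and 0.17. At 2-fold 1 was higher and 3 were lower, and 3 (12.0%) were listed at 0 in 1 library. For 12 small RNA names, 15 genes that span the name in RefSeq or share its assembled locus had a value; their log2 ratios ran from −0.11 to 0.50 with a median of 0.18. Of the 11 at a mean FPKM of 1 or more, none passed 2-fold. Of all names 0.356% were higher and 0.782% lower at that size, so a count of 0 in 11 is near that background. The table used to find hosts carries no strand, so which of these genes are read in the same direction as the small RNA was not checked. The strand of the libraries is not stated either, so reads from overlapping genes on opposite strands cannot be told apart.

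**Figure D3:**
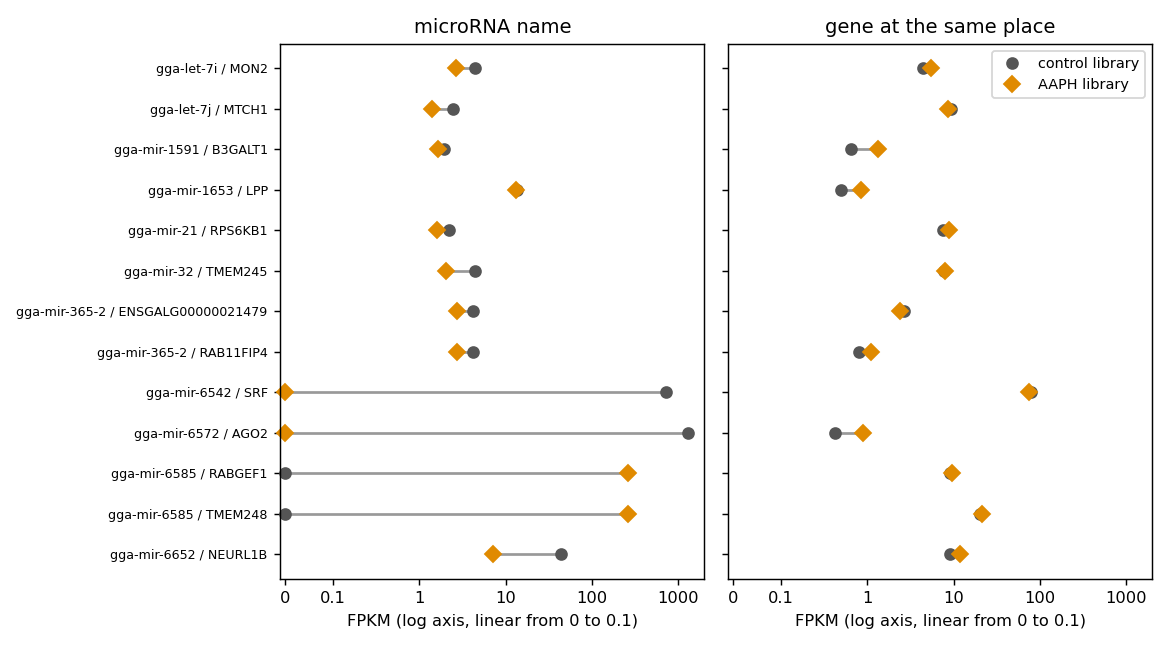
FPKM of 11 microRNA names (left) and of protein-coding or unnamed genes at the same place (right), 1 row per pair, with the control library as grey circles and the AAPH library as orange diamonds on log axes that are linear from 0 to 0.1. The long line of gga-mir-6542 (720 and 0 FPKM) stands beside the short line of SRF (78.7 and 74.4 FPKM), and that of gga-mir-6572 (1287 and 0) beside AGO2 (0.418 and 0.898).

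Among the 13 H/ACA RNAs, 5 were listed at 0 in 1 library, 3 passed 2-fold with a value in both, and 5 stayed within 1.5-fold. SNORA65 was at 134 FPKM in the control library, SNORA31 at 60.6, SNORA1 at 51.2 and SNORA21 at 51.2, and all 4 were listed at 0 under AAPH. In human these RNAs guide pseudouridylation of ribosomal RNA. SNORA53 was the reverse, at 0 under saline and 5.03 FPKM under AAPH. With these, 5 of 13 names (38.5%) were listed at 0 in 1 library, where 6.74% of all names were. That was the highest share of the 4 classes, with the other small RNAs close at 3 of 9 (33.3%).

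Of the 8 H/ACA names with a value in both libraries, 1 was 2-fold higher and 2 were 2-fold lower. Among all 10087 names compared with a value in both, 0.297% were higher and 0.654% lower. SNORA40 was at 79.7 FPKM under saline and 161 under AAPH, a log2 ratio of 1.00, and was just short of 2-fold when the libraries were scaled by the median ratio of all names. ACA64 was at 38.2 and 9.22 FPKM (−1.94). SNORA26 was at 96.9 and 42.4 FPKM (−1.17), and was within 2-fold after rescaling to TPM. The other 5 stayed within 1.5-fold. SNORA16 was at 67.7 and 62.8 FPKM (−0.11), SNORA68 at 51.2 and 52.0 (0.02), and SNORA73 at 16.7 and 14.2 (−0.23). SNORA73, also called U17, takes part in cutting the ribosomal RNA precursor. SNORA17 was at 3.63 and 3.47 FPKM, and SNORA24 at 3.17 and 3.07.

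Over all 13 H/ACA names the log2 ratios had a median of −0.23 and quartiles of −5.71 and −0.04, the lower quartile being set by names listed at 0. Under TPM that median was 0.017, while the median of all names moved from 0.0039 to 0.23, so the H/ACA median stayed below it. Over the 8 names with a value in both the median as deposited was −0.08, and their summed FPKM was 357 under saline and 348 under AAPH. Most of the class difference in summed FPKM thus came from names listed at 0.

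The C/D RNAs were mostly lower in the AAPH library. The median log2 ratio of the 8 names was −0.76, or −0.62 over the 7 with a value in both, and their sum without the name at 0 was 297 FPKM under saline and 205.8 under AAPH. On the log2 ratio used here, none of the 8 was 2-fold higher and 2 were 2-fold lower, where 0.356% and 0.782% of all names were. SNORD24, a guide for ribosomal RNA methylation, was at 116 and 50.5 FPKM (log2 ratio −1.18), and was within 2-fold after rescaling to TPM. SNORD94, which in human guides methylation of the spliceosomal U6 RNA, had 23.5 FPKM under saline and was listed at 0 under AAPH.

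Next in size were SNORD87 and U3. SNORD87 was at 25.9 FPKM under saline and 12.6 under AAPH (log2 ratio −0.98), a plain ratio of 0.489 that is past 2-fold. U3, which base-pairs with the ribosomal RNA precursor and is needed for its first cuts, was at 33.97 and 17.7 FPKM (−0.91). U3 has 3 assembled transcripts, and near-identical copies can share reads, so the value of each is uncertain. These were at 4.78 and 2.51 FPKM, 29.2 and 7.65, and 0 and 7.52.

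Of the other 4 C/D names, 3 were within 1.5-fold and SNORD12 was just past it. SNORD97, which in human guides methylation of a transfer RNA, was at 77.2 FPKM under saline and 90.0 under AAPH (log2 ratio 0.22). SNORD12 was at 15.8 and 9.95 FPKM (−0.62), SNORD49 at 18.8 and 14.97 (−0.31), and SNORD50 at 9.53 and 10.0 (0.07). SNORD12, SNORD49 and SNORD50 guide methylation of ribosomal RNA in human. SNORD97 and SNORD50 were thus the C/D names above 0.

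Of the 9 other small RNAs, 3 had a listed 0, all of them under saline. U6atac, the catalytic small nuclear RNA of the minor spliceosome, was at 0 under saline and 73.2 FPKM under AAPH. Cells that splice minor introns need this RNA, so its entry gives only what is listed and not that the RNA was absent. SCARNA6 was at 0 and 1.31 FPKM, and snoU85, a guide for the spliceosomal U5 RNA, at 0 and 0.793.

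The 6 with a value in both libraries lay within 2-fold on the log2 ratio used here. 7SK, the scaffold that holds the transcription elongation kinase P-TEFb in an inactive state, was at 74.3 FPKM under saline and 86.4 under AAPH (log2 ratio 0.21). RNaseP_nuc, the RNA of the enzyme that trims the front end of transfer RNA precursors, was at 2.995 and 6.30 FPKM (0.87), and passed 2-fold after rescaling to TPM. RNase_MRP, a relative that cuts the ribosomal RNA precursor, was at 3.92 and 3.09 FPKM (−0.27). Summed over transcripts, the 3 SCARNA names with a value in both libraries were within 1.5-fold, in both directions. SCARNA7 was at 11.1 and 15.5 FPKM (0.45), SCARNA13 at 6.72 and 5.22 (−0.31), and SCARNA15 at 4.96 and 4.47 (−0.12). Over the 7 compared names of this class the median log2 ratio was 0.21, and over the 6 with a value in both it was 0.05.

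Zeros fell on small RNAs at FPKM levels where other names were almost never at 0. The same FPKM stands for fewer fragments in a shorter transcript. Lengths and fragment numbers are unknown, so names were matched on FPKM only and not on fragments. Where the larger value was 10 FPKM or more, 9 of 30 small RNA names (30%) and 4 of 5368 other names (0.0745%) were listed at 0 in the other library. Other names with a single transcript gave 4 of 1702 (0.235%). At 100 FPKM or more it was 4 of 6 small RNA names and 0 of 672 others. Between 1 and 10 FPKM the shares were 2 of 24 (8.33%) and 25 of 4915 (0.509%). The 4 other names at 10 FPKM or more, named after their values were seen, were ST7-OT3_2, ENSGALG00000010393, ENSGALG00000028302 and ENSGALG00000028891, all with the 0 in the AAPH library.

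**Figure D4:**
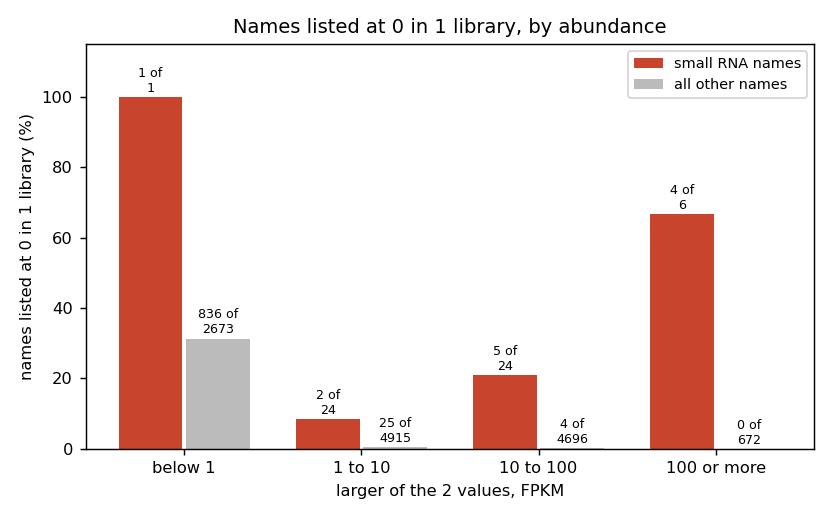
Percentage of names listed at 0 in 1 of the 2 libraries (y axis) by the larger of the name's 2 FPKM values (x axis), for small RNA names (red bars) and all other names (grey bars), with the number of names above each bar. The red bar is 66.7% at 100 FPKM or more, where no other name was at 0. Names in a bin are alike in FPKM and not in length or fragment number, which are unknown.

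Several small RNA transcripts had the same FPKM to within a relative 1e-05. SNORA1, SNORA21 and SNORA68 were all at 51.2 FPKM in the control library, while in the AAPH library SNORA68 was at 52.0 and the other two at 0. SNORD94 was at 23.5 FPKM in the control library, as was 1 transcript of SNORA16, and these were at 0 and 48.4 in the AAPH library. Between 20 and 150 FPKM in the control library, 6 of 17 small RNA transcripts (35.3%) shared a value with another transcript, against 122 of 2715 other transcripts (4.49%). In the AAPH library it was 0 of 7 small RNA transcripts and 100 of 2633 others (3.80%). FPKM does not give depth, so the number of fragments behind these values is unknown.

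For 7 of 27 small RNA names with 1 transcript, the ratio of the libraries matched a ratio of small whole fragment numbers, after allowing for a fragment's FPKM being 1.05 times larger under AAPH. How often other names at like FPKM match such a ratio was not counted, so 7 of 27 is a description only and some matches may be accidental. The smallest numbers for RNaseP_nuc, and likewise for gga-mir-1650, were 2 under AAPH and 1 under saline, with an exact 95% interval of the FPKM ratio from 0.109 to 124. For gga-let-7j they were 8 and 15 (0.206 to 1.41), and for gga-let-7i 7 and 12 (0.205 to 1.69). For SCARNA7 they were 4 and 3 (0.237 to 9.57), for RNase_MRP 3 and 4 (0.115 to 4.66), and for gga-mir-1551 8 and 7 (0.381 to 3.89). Every one of these 7 intervals includes a ratio of 1, which numbers this small make likely, so no conclusion is drawn from it. Names without such a match have no interval. The intervals cover counting error only and would be narrower if the real numbers are multiples of these.

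Names with several transcripts could hold opposite differences. Of 12 small RNA names with 2 or more transcripts at a mean FPKM of 1 or more, 7 had transcripts on both sides of 0 (58.3%, against 73.3% of 4637 other names) and 9 had a transcript past 2-fold (75%, against 40.6%). In SNORA16 and U3 transcripts passed 2-fold in opposite directions, which is 16.7% of the 12 names, against 11.3% of the others. The 3 transcripts of SNORA16 were at 10.3 and 14.4 FPKM, 33.9 and 0, and 23.5 and 48.4, and they sum to values within 1.5-fold. SNORD12 was at 10.4 and 9.93 FPKM in 1 transcript and at 5.37 and 0.0170 in the other. Which of such transcripts a read was assigned to rests on the authors' assembly.

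**Figure D5:**
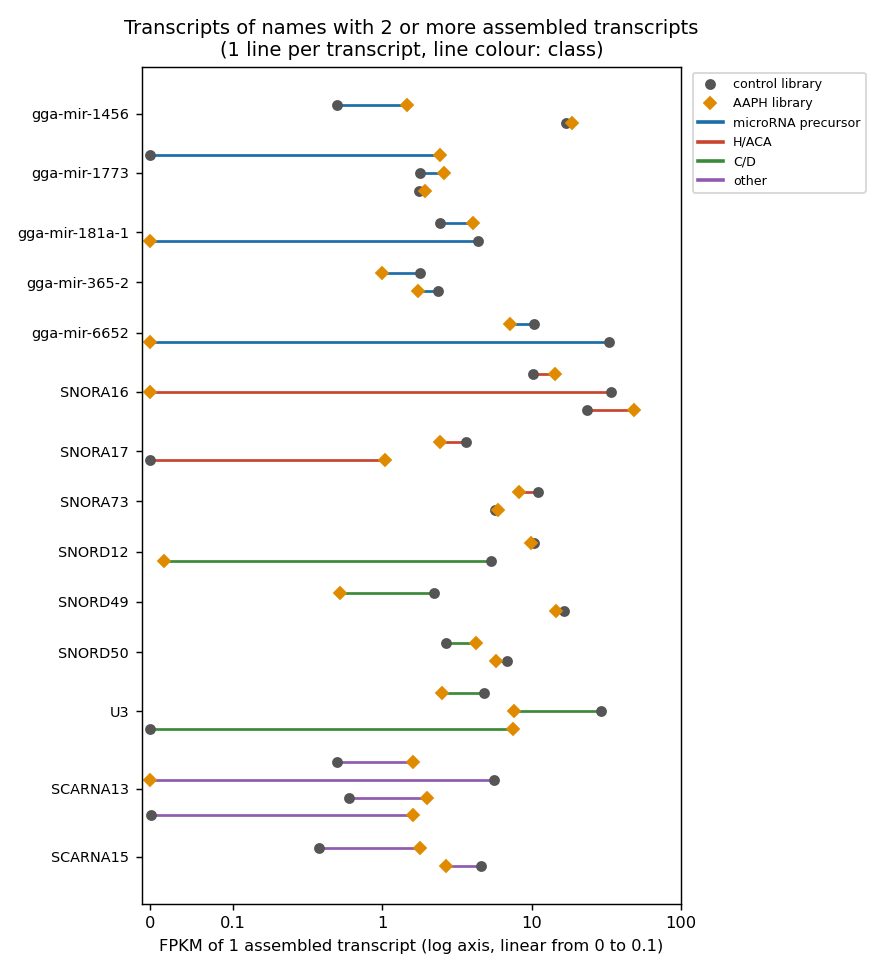
FPKM of each assembled transcript of the 14 small RNA names with 2 or more transcripts, on a log axis that is linear from 0 to 0.1; each line joins the control value (grey circle) and the AAPH value (orange diamond) of 1 transcript. SNORA16, U3 and SCARNA13 hold lines past 2-fold in both directions, for instance 33.9 to 0 and 23.5 to 48.4 FPKM in SNORA16. In SCARNA13 1 line runs from 5.62 to 0.000642 FPKM and another from 0.000996 to 1.60.

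Genes for the proteins that make or carry these RNAs were counted at 1.5-fold. Of 73 symbols listed, 49 were matched and 46 compared. On the log2 ratio, with 1 FPKM added to the deposited values, none was 1.5-fold higher or lower. Of all names as deposited, 2.73% were higher and 3.93% lower at that size. The count of 0 in 46 is below these shares, and no conclusion is drawn from it. After rescaling to TPM 1 was higher, and the share of all names past 1.5-fold under TPM was not counted. The median log2 ratio was 0.12 for 15 microRNA processing genes, of which 12 were above 0. Of all names compared, 5100 of 10106 were above 0. DROSHA was at 3.56 FPKM under saline and 4.12 under AAPH, and DICER1 at 2.88 and 3.68. Medians were −0.20 for 5 genes of the H/ACA particle, −0.16 for 8 of the C/D particle, −0.23 for 3 of the 7SK particle, −0.11 for 7 of RNase P and MRP, and −0.14 for 8 of the minor spliceosome. The lowest was POP4, a protein of RNase P and MRP, at 9.52 and 6.02 FPKM (−0.58, just inside 1.5-fold on this scale). The highest was TNRC6B, which works with Argonaute proteins, at 1.19 and 1.98 (0.45). In plain ratios, without the added 1 FPKM, POP4 and TNRC6B passed 1.5-fold. ZMAT5 of the minor spliceosome, at 67.7 and 45.1 FPKM, did so as well. How many of all names pass 1.5-fold in plain ratios was not counted. Under TPM the median of all names was 0.23, with the microRNA part above that median at 0.34 and the H/ACA part below it at −0.02. The C/D (0.08), 7SK (0.0011), RNase P and MRP (0.13) and minor spliceosome (0.11) parts were above 0 but below the median of all names.

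The libraries carried the markers of heart. Marker counts are at 1.5-fold, a size at which 3.93% of all names were lower and 2.73% higher as deposited. The share of all names under TPM was not counted at that size, so the TPM counts here have no background beside them. All 10 heart muscle markers were compared and none passed 1.5-fold; their summed FPKM was 42842 under saline and 37221 under AAPH. Of 12 red blood cell markers 5 were compared, and 4 of these were 1.5-fold or more lower (summed 3427 and 2275 FPKM), as were 4 of 6 nerve markers (38.3 and 23.7; 2 of 6 under TPM). Of 7 fibroblast and epicardium markers 1 was lower (972 and 875 FPKM; 0 under TPM), and of 7 endothelial (169 and 171) and 3 leukocyte markers (13.1 and 13.8 for all 5) none passed 1.5-fold as deposited, while 1 endothelial marker was higher under TPM. No matched marker was listed at 0. In bulk hearts fewer cells of a type and less RNA per cell cannot be told apart, and the part of red blood or nerve cells in the small RNA differences was not tested. Summed FPKM of the small RNA names was 0.261% of the control library and 0.110% of the AAPH library. Over the 43 names with a value in both it was 0.0746% and 0.0768%, so the difference in share came from names listed at 0.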

How the data were processed

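The submitters' processing notes name TopHat2 2.1.1, Cuffdiff, bcl2fastq and Cufflinks 2.2.1. Neither genome build nor annotation is named in the labels or headers. FPKM was deposited per assembled transcript, 1 column per library, per the file headers; the number of reads is unknown. RNA was extracted with a total RNA kit, per the labels' protocols, which describes the extraction and not which RNAs the libraries kept. Cufflinks-type FPKM of transcripts near or below the fragment length rests on few possible fragment positions, and the files hold no lengths, status flags or intervals. The 1968 unnamed transcripts were left out.

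The members, lists and settings were chosen with earlier results of these data known. The text gives every member past 2-fold or listed at 0 in 1 library, the 5 highest of each class and all microRNA groups; the members outside that rule are given so that all 55 are accounted for. DROSHA, DICER1, POP4, TNRC6B and ZMAT5 were also named outside it. A name listed at 0 in 1 library is given no ratio of its own. RefSeq (assembly GRCg7b) supplied names and neighbours only: 25 of 25 microRNA names and 1 other were matched.

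Fragment numbers were sought as ratios of whole numbers, within a relative 0.0002, after the factor 1.05 read from 781 low names with 1 transcript, of which 88.0% gave whole numbers up to 10. Intervals are exact binomial (Clopper-Pearson). The tools were matplotlib 3.10.9, scipy 1.17.1, pandas 2.3.3, numpy 2.4.6 and Python 3.11.15. Only the log2 ratio and the calling of fold sizes were tested on simulated data, without low control values or control values of 0. Alternatives were other pseudocounts, filters and scalings, single transcripts, and names at 0 left out.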

Additional observations from a re-analysis of the deposited data

How the results depend on the processing

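The count of small RNA names 2-fold higher in the AAPH library was 4. It was 5 with a pseudocount of 0.1 FPKM (1.05% of all names) and 2 with a pseudocount of 10 FPKM (0.0495% of all names). With names at 0 in either library left out it was 1 of 43, where 0.297% of all names were higher. With each transcript on its own it was 8 of 69, where 8.59% of all transcripts were higher. The count 2-fold lower was 11. It was 13 with a pseudocount of 0.1 FPKM (1.60% of all names) and 4 with names at 0 left out (0.654% of all names). With each transcript on its own it was 17 of 69, where 7.99% of all transcripts were lower. The median log2 ratio of microRNA precursors (−0.38) was −0.13 with a pseudocount of 10, −0.038 at a mean FPKM of 10 or more, and −0.15 under TPM. The H/ACA median (−0.23) was 0.017 under TPM, where the median of all names moved up from 0.0039 to 0.23. The H/ACA median was −1.56 at a mean of 10 or more and −1.56 for names with 1 transcript. For each transcript it was −0.41, and with names at 0 left out −0.079. The C/D median (−0.76) was −0.52 with a pseudocount of 10, −0.91 at a mean of 10 or more, −0.51 under TPM, −0.62 with names at 0 left out and −1.08 for names with 1 transcript. Names at 0 in the control library numbered 5 of 55, where 390 of all 13011 names were. As transcripts they numbered 8 of 74, where 1959 of all 27335 were. Where the other value was 10 FPKM or more it was 2 of 30, against 0 of 5368 other names. Names at 0 in the AAPH library numbered 7 of 55, where 487 of all 13011 were. As transcripts they numbered 9 of 74, where 1714 of all 27335 were, and at 10 FPKM or more 7 of 30, against 4 of 5368. The cause of these shifts was not tested beyond what each setting leaves out. Under TPM the split of small RNA names at 2-fold was 5 higher and 9 lower, and that of all names moved from 36 and 79 to 79 and 34. No paired analysis was possible because each group has 1 library.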
